A study of Mus musculus with 9 samples.

Results

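The genes described are 10 grouped as quiescence factors, a name for factors that hold resting T cells back from growth and division. That role was not tested here for any of them. They are Foxo1, Foxo3, Foxp1, Klf6, Pik3ip1, Tsc22d3, Tob1, Tob2, Btg1 and Btg2. They were named for their known roles, with earlier results of these data in view, and each matched 1 of the 55573 gene identifiers in the count tables. All 10 had enough counts to be among the 13328 genes tested. RNA was sequenced from splenic CD4+ T cells of B6 mice in 3 groups of 3 libraries. In the first group the cells were activated for 3 hours in an incubator at 39 °C, in the second for 3 hours at 37 °C, and the third was left unactivated and is called naive. Activation used plates coated with antibodies against CD3, part of the T cell receptor complex, and CD28, a costimulatory receptor. All groups share strain and organ, and the labels name no engineered allele. The design text has CD4+ T cells isolated and then activated, whereas the growth protocol puts spleen cells on the plates, so the point at which other spleen cells were removed is unclear. Nothing in the labels tells whether replicate libraries are separate mice or cultures, so p-values reflect only how far these samples spread, which may be technical. Nor is it given whether the naive cells were kept in medium for an equal time.

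A resting T cell keeps its growth programme switched off by active means. The forkhead factors FoxO1 and FoxO3 work in the nucleus while signalling through phosphoinositide 3-kinase (PI3K) and Akt is low, and Akt phosphorylation sends them to the cytoplasm once the T cell receptor is engaged. Tob and Btg proteins bind the CCR4-NOT deadenylase, which shortens the poly(A) tails of mRNAs, and GILZ, the product of Tsc22d3, is a glucocorticoid-induced protein that binds NF-kB and AP-1 factors. In mouse T cells, loss of Foxp1 or of Btg1 and Btg2 together is known to break quiescence. These proteins are controlled in part by phosphorylation and location, which RNA counts do not measure.

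Libraries held between 12647692 and 17605549 counts, and levels below are in CPM, the count scaled to a common library size with TMM factors. Markers of T cells, Cd4 among them, were present throughout. Their summed level over 11 genes was 6884 to 7434 CPM at 39 °C, 6721 to 7044 CPM at 37 °C and 5557 to 6783 CPM in naive cells. Most of these genes are shared by CD4+ and CD8 T cells. The activation genes Il2, Il2ra, Cd69, Myc, Irf4 and Nr4a1 were called higher in both activated groups than in naive cells. Markers of other spleen cells moved with activation: 11 B cell markers summed to 296 to 308 CPM at 39 °C, 270.3 to 282 CPM at 37 °C and 774 to 923 CPM in naive cells. Of these 11, 9 were called lower and 1 higher than in naive cells at each temperature. The sum over 8 erythroid and platelet markers was 9.38 to 9.55 CPM at 39 °C, 9.07 to 9.44 CPM at 37 °C and 131 to 215 CPM in naive cells, and that over 8 myeloid markers was 8.19 to 11.4 CPM at 39 °C, 9.24 to 10.6 CPM at 37 °C and 15.5 to 20.2 CPM in naive cells. The 2 CD8 T cell markers summed to 12.6 to 14.6 CPM at 39 °C, 13.5 to 15.1 CPM at 37 °C and 25.8 to 36.1 CPM in naive cells, the 5 NK cell markers to 0.374 to 1.18 CPM at 39 °C, 0.466 to 0.714 CPM at 37 °C and 4.34 to 4.95 CPM in naive cells and the 4 neutrophil markers to 0.125 to 0.238 CPM at 39 °C, 0.0689 to 0.155 CPM at 37 °C and 1.35 to 3.37 CPM in naive cells, with 1 neutrophil marker at 0 at 39 °C and 2 at 37 °C. The part of these cells in the differences between activated and naive libraries was not tested, and fewer cells of a type and less RNA per cell cannot be told apart in bulk RNA. Naive library 1 stood apart from the other naive libraries for several of the genes, and fold changes of Btg1, Tsc22d3 and Foxo3, where it lay farthest from the others, are given with and without it. Its distance was not limited to the 10 genes. Over all genes with enough counts, the chi-square of counts per degree of freedom was 38.7 between naive libraries 1 and 2. It was 21.7 between naive libraries 1 and 3 and 9.63 between naive libraries 2 and 3.

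At 37 °C against naive, 6 of the 10 genes were called lower and 3 higher. Tsc22d3, Pik3ip1, Klf6, Foxo1, Tob1 and Btg1 fell, Btg2, Foxp1 and Tob2 rose, and Foxo3 was not called. At 39 °C against naive, 7 fell (the same 6 and Foxo3) and 2 rose (Foxp1 and Btg2), with Tob2 not called. A gene was called where its adjusted p from edgeR's quasi-likelihood test, with Benjamini-Hochberg adjustment over all 13328 genes, was under 0.05. Of all genes tested, 30.9% were called higher and 31.8% lower at 37 °C than in naive cells, 62.7% in all, and the shares at 39 °C were 29.2% and 29.8%, 58.9% in all. The median log2 fold change of the 10 genes was -0.64 at 37 °C and -0.54 at 39 °C, beside -0.0025 and -0.0027 for all genes tested; without naive library 1 it was -0.54 at 37 °C and -0.52 at 39 °C. Both comparisons use the same 3 naive libraries, so they are not independent of each other. Activated and naive libraries did not overlap for 9 of the 10 genes at 37 °C and 9 at 39 °C, beside 65.4% and 61.3% of all genes tested. Between 39 °C and 37 °C, 0 of the 10 genes were called, where 0.758% of all genes tested were (0.135% higher and 0.623% lower at 39 °C).

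**Figure D1:**
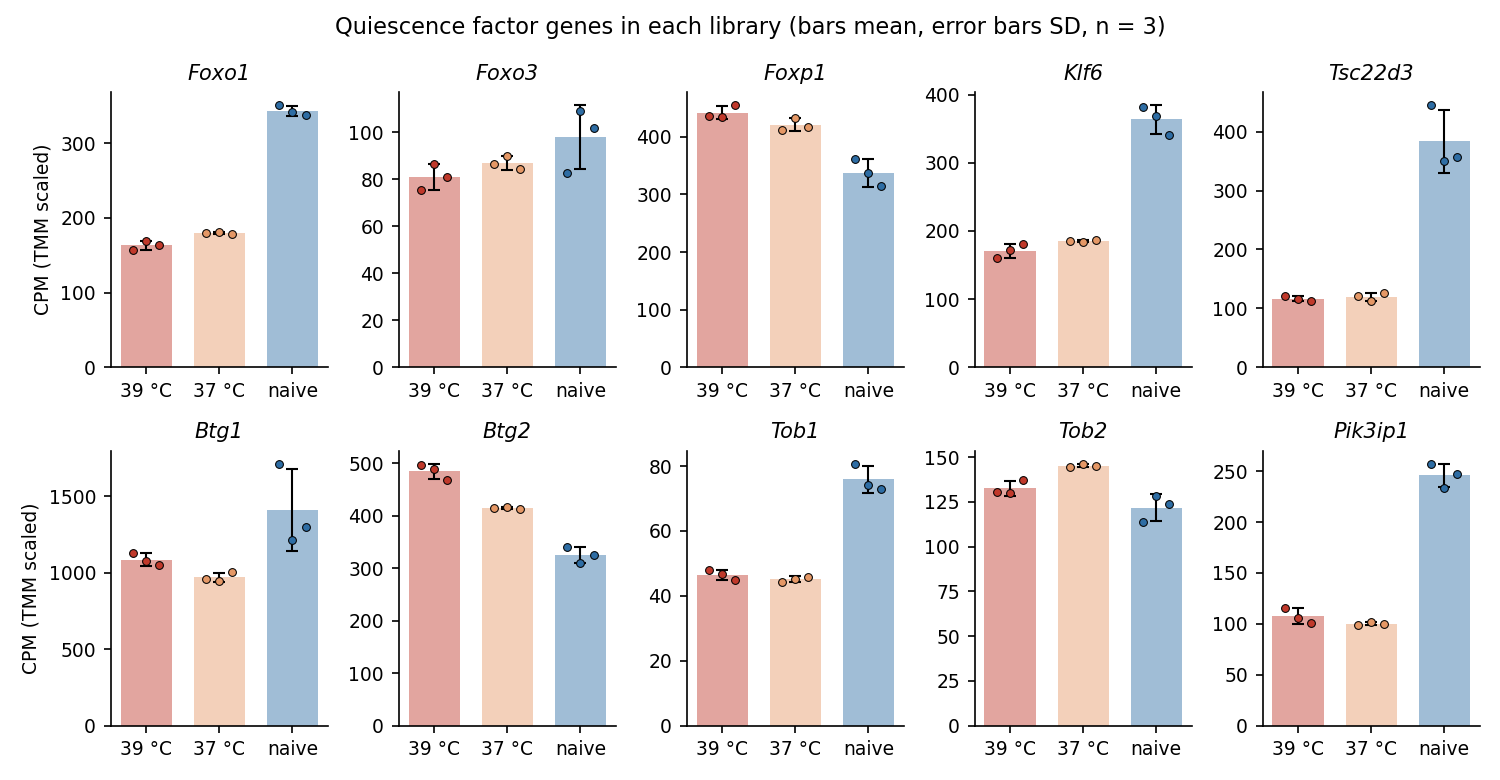
CPM of each of the 10 genes, one panel per gene, with points for the single libraries, bars for the mean of 3 libraries at 39 °C, at 37 °C and in naive cells, and error bars for the SD. Tsc22d3, Pik3ip1, Klf6, Foxo1 and Tob1 are high in the 3 naive libraries, Btg2 is lowest there, and the bars at 39 °C and 37 °C are close to each other in every panel; the vertical scales differ between panels and start at 0.

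Foxo1 (ENSMUSG00000044167, chromosome 3, 52268336 to 52353221 on the plus strand, GRCm38) encodes the main FoxO factor of T cells, an activator of survival genes such as Il7r. It had 157, 169 and 164 CPM at 39 °C, 179, 182 and 178 CPM at 37 °C and 351, 342 and 338 CPM in naive cells. Every activated library was below every naive one, and those at 39 °C were also below those at 37 °C. The log2 fold change was -0.94 ± 0.060 (adjusted p = 7.17e-08) at 37 °C against naive, a level 1.91-fold lower, and -1.08 ± 0.060 (adjusted p = 2.46e-08) at 39 °C against naive. Here and below ± beside a log2 fold change is its standard error in edgeR (n = 3 in each group).

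Foxo3 (ENSMUSG00000048756, chromosome 10, 42181841 to 42276755 on the minus strand) encodes the second FoxO factor of these cells. Its libraries had 75.3, 86.5 and 80.8 CPM at 39 °C, 86.4, 89.8 and 84.3 CPM at 37 °C and 82.7, 109 and 102 CPM in naive cells. Naive library 1 lay below several activated libraries and the other two naive libraries lay above all of them. The log2 fold change was -0.17 ± 0.10 (adjusted p = 0.138) at 37 °C, not called, and -0.28 ± 0.10 (adjusted p = 0.0267) at 39 °C, called lower. Without naive library 1 the values were -0.28 (adjusted p = 0.00237) at 37 °C and -0.38 (adjusted p = 0.000218) at 39 °C, both called lower. Without naive library 2 the value at 37 °C was -0.090 (adjusted p = 0.408). The call at 39 °C was lost without 39 °C library 1, with a log2 fold change of -0.24 (adjusted p = 0.0927), and without 39 °C library 3, with -0.27 (adjusted p = 0.0687). It was also lost without naive library 2, with -0.19 (adjusted p = 0.0852), and without naive library 3, with -0.25 (adjusted p = 0.0857).

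Foxp1 (ENSMUSG00000030067, chromosome 6, 98925338 to 99522721 on the minus strand) encodes a forkhead repressor that keeps naive T cells quiescent in mice and competes with FoxO1 at the Il7r gene. It had 437, 435 and 455 CPM at 39 °C, 413, 434 and 417 CPM at 37 °C and 362, 337 and 314 CPM in naive cells. All activated libraries were above all naive ones. Its log2 fold change was 0.32 ± 0.071 (adjusted p = 0.00193) at 37 °C and 0.39 ± 0.071 (adjusted p = 0.000499) at 39 °C, so Foxp1 rose where Foxo1 fell. Foxp1 shares 2.18% of its exon bases with the predicted gene Gm20696, which held 121 counts over the 9 libraries against 52099 for Foxp1.

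Klf6 (ENSMUSG00000000078, chromosome 13, 5861482 to 5870394 on the plus strand) encodes a zinc finger factor of the Krüppel-like family. It had 161, 172 and 181 CPM at 39 °C, 186, 183 and 186 CPM at 37 °C and 382, 368 and 341 CPM in naive cells. The naive libraries were all above the activated ones, and those at 39 °C were below those at 37 °C. Against naive the log2 fold change was -0.97 ± 0.070 (adjusted p = 1.92e-07) at 37 °C and -1.09 ± 0.070 (adjusted p = 8.24e-08) at 39 °C.

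Pik3ip1 (ENSMUSG00000034614, chromosome 11, 3330401 to 3342971 on the plus strand) encodes a membrane protein that inhibits PI3K, upstream of Akt and the FoxO factors. It had 116, 105 and 101 CPM at 39 °C, 98.5, 102 and 100.2 CPM at 37 °C and 257, 234 and 247 CPM in naive cells, with no overlap between activated and naive libraries. The log2 fold change against naive was -1.29 ± 0.071 (adjusted p = 1.74e-08) at 37 °C, a level 2.45-fold lower, and -1.19 ± 0.070 (adjusted p = 3.68e-08) at 39 °C. An antisense gene, Gm12592, covers 2.13% of its exon bases and held 232 counts over the 9 libraries against 20239 for Pik3ip1, and since the strand setting of the counting is not given, reads of the pair cannot be told apart there. Antisense genes also cover 7.78% of the exon bases of Foxo1 (Gm20402) and 4.34% of those of Tob2 (Gm49476). Each of these held 0 counts over the 9 libraries, and the same limit applies to them.

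Tsc22d3 (ENSMUSG00000031431, chromosome X, 140539528 to 140600659 on the minus strand) encodes GILZ, a leucine zipper protein induced by glucocorticoids and by FoxO factors. It had 121, 116 and 112 CPM at 39 °C, 121, 112 and 125 CPM at 37 °C and 445, 349 and 357 CPM in naive cells. Naive library 1 was the highest of all, and the lowest naive library was still far above the activated ones. Its fall was the largest among the 10 genes in both activation comparisons, with a log2 fold change of -1.68 ± 0.10 (adjusted p = 2.49e-08) at 37 °C, 3.21-fold lower, and -1.72 ± 0.10 (adjusted p = 2.27e-08) at 39 °C, 3.30-fold lower. Without naive library 1 these values were -1.56 (adjusted p = 8.19e-11) and -1.60 (adjusted p = 6.98e-11). At 37 °C against naive, Tsc22d3 and Pik3ip1 were 2 of the 10 genes called lower by at least 1 on the log2 scale, a size passed by 10.5% of all genes tested. At 39 °C against naive, Foxo1 and Klf6 passed it too, 4 of the 10 genes beside 9.32% of all genes tested.

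The anti-proliferative genes formed 2 pairs of relatives with opposite calls at 37 °C against naive. Tob1 (ENSMUSG00000037573, chromosome 11, 94211454 to 94215495 on the plus strand) encodes a protein that recruits CCR4-NOT and represses Il2 transcription in resting T cells. It had 47.8, 46.6 and 44.9 CPM at 39 °C, 44.2, 45.3 and 46.0 CPM at 37 °C and 80.8, 74.2 and 73.0 CPM in naive cells, and the naive libraries lay above all activated ones. The log2 fold change was -0.75 ± 0.066 (adjusted p = 1.22e-06) at 37 °C and -0.71 ± 0.066 (adjusted p = 2.13e-06) at 39 °C.

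Tob2 (ENSMUSG00000048546, chromosome 15, 81848272 to 81858796 on the minus strand), which encodes its close relative, had 131, 129.7 and 137 CPM at 39 °C, 144, 146 and 145 CPM at 37 °C and 114, 128 and 124 CPM in naive cells. The 37 °C libraries were the highest, and the naive libraries lay below all activated libraries. Its log2 fold change was 0.25 ± 0.064 (adjusted p = 0.00452) at 37 °C, called higher, and 0.12 ± 0.064 (adjusted p = 0.121) at 39 °C, not called. With upper-quartile scaling, under which the median log2 fold change of all genes was -0.14 at 37 °C and -0.13 at 39 °C, the value of Tob2 at 37 °C was 0.12 (adjusted p = 0.127), no longer called, and that at 39 °C was -0.0043 (adjusted p = 0.958), the opposite sign.

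Btg1 (ENSMUSG00000036478, chromosome 10, 96617006 to 96622809 on the plus strand) encodes a deadenylase-binding protein and gave the most counts of the 10 genes. It had 1129.6, 1079 and 1052 CPM at 39 °C, 962, 946 and 1005 CPM at 37 °C and 1714, 1217 and 1299.7 CPM in naive cells. Naive library 1 was far above the other naive libraries, which still lay above all activated ones. The log2 fold change was -0.54 ± 0.11 (adjusted p = 0.00132) at 37 °C and -0.38 ± 0.11 (adjusted p = 0.0129) at 39 °C, and without naive library 1 these were -0.37 (adjusted p = 0.000102) and -0.21 (adjusted p = 0.00813), both still called lower. The pseudogenes Btg1-ps1 and Btg1-ps2 had 0 counts.

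Btg2 (ENSMUSG00000020423, chromosome 1, 134075170 to 134079120 on the minus strand), the relative of Btg1 and a target of p53 and of growth factor signals, had 497, 489.8 and 469 CPM at 39 °C, 414, 418 and 413 CPM at 37 °C and 341, 310.0 and 325 CPM in naive cells. The 3 groups did not overlap, with 39 °C highest and naive lowest. Its log2 fold change was 0.35 ± 0.065 (adjusted p = 0.000528) at 37 °C and 0.58 ± 0.065 (adjusted p = 1.08e-05) at 39 °C, so Btg2 rose while Btg1 fell.

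The bases before the start sites of Btg1 and Btg2 are shown because the pair had opposite calls. The sequences are from RefSeq (GRCm38.p6), 250 bases 5′ to 3′ on the strand of the gene and ending at the base before its start site. Capitals mark matches to any of 7 motifs searched on both strands. These motifs were the forkhead motif GTAAACA, the cAMP response element TGACGTCA, the AP-1 motif TGANTCA and the E-box CACGTG. The others were the heat shock element core GAANNTTC, CCAAT and TATAAA. The Btg1 stretch is chr10:96616751-96617000 on the plus strand and the Btg2 stretch is chr1:134079156-134079405 on the minus strand. Distances are from the RefSeq starts, and the 5′ ends of the GENCODE genes given above lie 5 bases downstream of that for Btg1 and 35 bases downstream for Btg2.
Btg1: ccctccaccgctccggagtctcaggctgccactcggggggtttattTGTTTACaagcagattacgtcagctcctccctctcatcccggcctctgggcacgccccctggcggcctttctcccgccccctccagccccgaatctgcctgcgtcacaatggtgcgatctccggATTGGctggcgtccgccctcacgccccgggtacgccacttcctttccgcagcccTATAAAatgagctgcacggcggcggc
Btg2: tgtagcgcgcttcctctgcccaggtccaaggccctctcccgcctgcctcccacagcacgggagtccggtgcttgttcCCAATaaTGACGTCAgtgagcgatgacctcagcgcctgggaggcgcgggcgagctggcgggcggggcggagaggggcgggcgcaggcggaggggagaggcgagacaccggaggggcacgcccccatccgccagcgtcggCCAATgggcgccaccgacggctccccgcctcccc
In Btg1, the forkhead motif lies 204 bases before the start on the opposite strand, CCAAT 80 bases before on the opposite strand and TATAAA 26 bases before. In Btg2, CCAAT lies 173 and 34 bases before the start and the cAMP response element, which reads the same on both strands, 166 bases before. No 2 matches overlap. Among all 32851 RefSeq promoter windows (250 bases before to 50 after the start), 3.65% hold the forkhead motif and 1.79% the cAMP response element. The 10 genes have 14 such windows, and Btg1 was the 1 gene with the forkhead motif and Btg2 the 1 gene with the cAMP response element. CCAAT was in 6 of the 14 windows, beside 37.4% of all windows. AP-1 (7.81% of all windows) and GAANNTTC (7.86%) were in none of the 14. The motifs were chosen with the values known, a match is no binding site, and a missing match says only that these letters are not in the window.

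**Figure D2:**
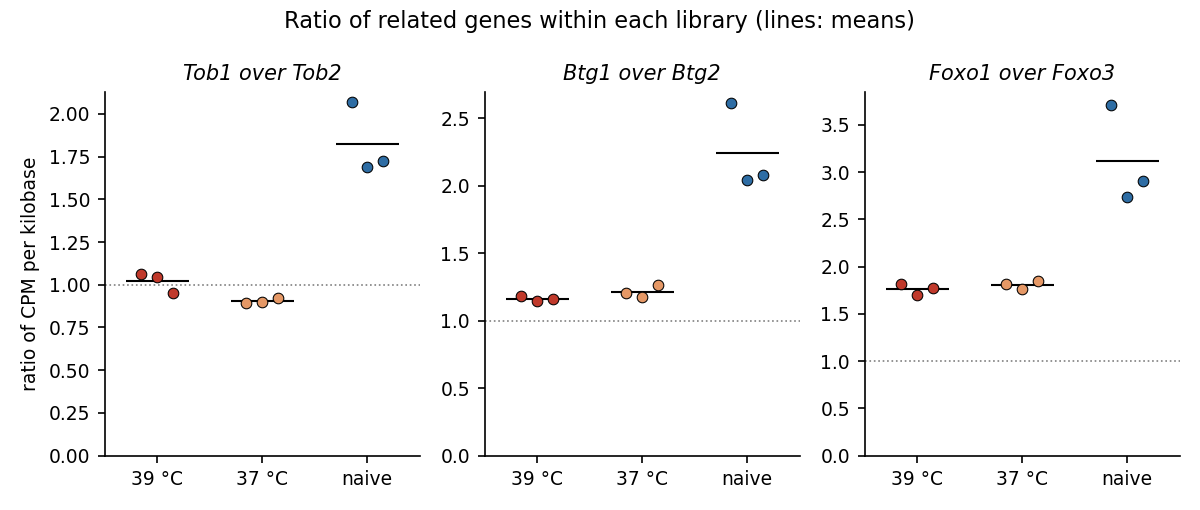
Ratio of Tob1 over Tob2, Btg1 over Btg2 and Foxo1 over Foxo3 within each library, computed from CPM per kilobase of exon, with points for single libraries and lines for the mean of 3. In each panel the naive libraries lie above all libraries at 39 °C and 37 °C.

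Within each library, levels per kilobase of exon can be set side by side between genes. The length used is that of all annotated exons of a gene together, and which transcripts these cells make was not checked. Which gene of a pair is higher depends on that length, whereas with a fixed length the change of a ratio between groups does not. The ratio of Tob1 to Tob2 was 1.07, 1.05 and 0.953 at 39 °C, 0.892, 0.901 and 0.925 at 37 °C and 2.07, 1.69 and 1.72 in naive cells. Per kilobase, Tob1 was thus the higher of the pair in every naive library. After activation the ratio was near 1, below it in all 3 libraries at 37 °C. In CPM, without a length, Tob2 was the higher in every library, with naive means of 122 CPM for Tob2 and 76.0 CPM for Tob1. Btg1 to Btg2 gave a ratio of 1.18, 1.15 and 1.16 at 39 °C, 1.21, 1.18 and 1.26 at 37 °C and 2.61, 2.04 and 2.08 in naive cells. Btg1 remained above Btg2 in all 9 libraries, by a smaller margin after activation. For Foxo1 over Foxo3 the ratio was 1.82, 1.70 and 1.78 at 39 °C, 1.81, 1.77 and 1.85 at 37 °C and 3.71, 2.74 and 2.90 in naive cells. In these 3 ratios naive library 1 was the highest of all libraries, and the other naive libraries still lay above all activated ones. Foxo1 over Foxp1 averaged 0.586 ± 0.0253 at 39 °C, 0.678 ± 0.0124 at 37 °C and 1.62 ± 0.0854 in naive cells (SD, n = 3 each). Per kilobase, the order of this pair was thus the reverse in activated and naive cells. That order rests on exon lengths of 8665 bases for Foxo1 and 13751 bases for Foxp1. In CPM the naive means were 344 for Foxo1 and 338 for Foxp1, with overlapping libraries, and Foxp1 was the higher in activated cells. The ratios are given without a test, since they were picked with the opposite calls known.

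By mean CPM per kilobase of exon, Btg1 (206) and Btg2 (177) led at 39 °C, followed by Klf6 (38.9), Foxp1 (32.2), Tsc22d3 (26.8), Pik3ip1 (25.1), Tob1 (20.3), Tob2 (19.9), Foxo1 (18.8) and Foxo3 (10.7). Libraries of Tsc22d3 and Pik3ip1 overlapped there, as did those of Tob1 and Tob2. At 37 °C the order was Btg1 (184), Btg2 (151), Klf6 (42.1), Foxp1 (30.6), Tsc22d3 (27.5), Pik3ip1 (23.5), Tob2 (21.8), Foxo1 (20.7), Tob1 (19.7) and Foxo3 (11.5), with no overlap between neighbours. In naive cells it was Btg1 (267), Btg2 (119), Tsc22d3 (88.4), Klf6 (82.8), Pik3ip1 (57.6), Foxo1 (39.7), Tob1 (33.2), Foxp1 (24.6), Tob2 (18.3) and Foxo3 (12.9), where Tsc22d3 and Klf6 overlapped. Per kilobase, Foxo3 was thus lowest and Btg1 highest in all 3 groups. By the same measure Foxp1 stood above Foxo1 in activated cells and below it in naive cells. These orders rest on the same exon lengths, and in CPM Tob1 was the lowest of the 10 genes in all 3 groups. The largest SD relative to the mean was that of naive Btg1, 18.9%. The median SD over the 10 genes was 3.64% of the mean at 39 °C, 1.89% at 37 °C and 5.91% in naive cells. Summed over the 10 genes, the level was 2872, 2828 and 2797 CPM at 39 °C, 2648, 2658 and 2700.1 CPM at 37 °C and 4130.0, 3469 and 3519.5 CPM in naive cells.

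Between 39 °C and 37 °C none of the 10 genes passed the threshold, and the fold of each lay between 0.908 and 1.17. Of the 10 genes, 2 (Foxo1 and Btg2) had an unadjusted p under 0.05 beside 7.96% of all genes tested, and libraries of the temperatures did not overlap for 6 (Foxo1, Foxp1, Klf6, Tob2, Btg1 and Btg2) beside 20.9% of all genes tested. Btg2 averaged 485 ± 14.3 CPM at 39 °C and 415 ± 2.45 CPM at 37 °C (SD, n = 3), a log2 fold change of 0.23 ± 0.065 with a 95% interval of 0.083 to 0.37 and an edgeR adjusted p = 0.241. It was higher in each 39 °C library than in each 37 °C library. Btg2 was called higher by DESeq2 with a log2 fold change of 0.23 (adjusted p = 0.0295), when the 6 activated libraries were fitted alone with 0.22 (adjusted p = 0.0183), and without naive library 1, which changes the shared spread and not the compared libraries, with 0.23 (adjusted p = 0.0293), 3 of 16 alternatives. Foxo1 had a log2 fold change of -0.14 ± 0.060, with an interval of -0.27 to -0.0073 and an edgeR adjusted p = 0.595. The other values were -0.10 ± 0.10 for Foxo3, 0.071 ± 0.071 for Foxp1, -0.11 ± 0.070 for Klf6 and 0.10 ± 0.071 for Pik3ip1. They were -0.037 ± 0.095 for Tsc22d3, 0.042 ± 0.068 for Tob1, -0.13 ± 0.064 for Tob2 and 0.16 ± 0.11 for Btg1. Over the 10 genes the 95% intervals of the fold ran from 0.804 to 1.33. In simulated counts for this comparison, with 3 libraries per group, the test recovered 50 of 50 genes changed 2-fold. It recovered 42 of 50 genes changed 1.5-fold and 10 of 50 changed 1.25-fold. The changed genes were drawn only from those above a set mean CPM, and apart from these changes all groups, naive included, had equal means. The counts recovered are therefore not a rate for all genes in the fit. Recovery at the levels and spread of these 10 genes was not tested.

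**Figure D3:**
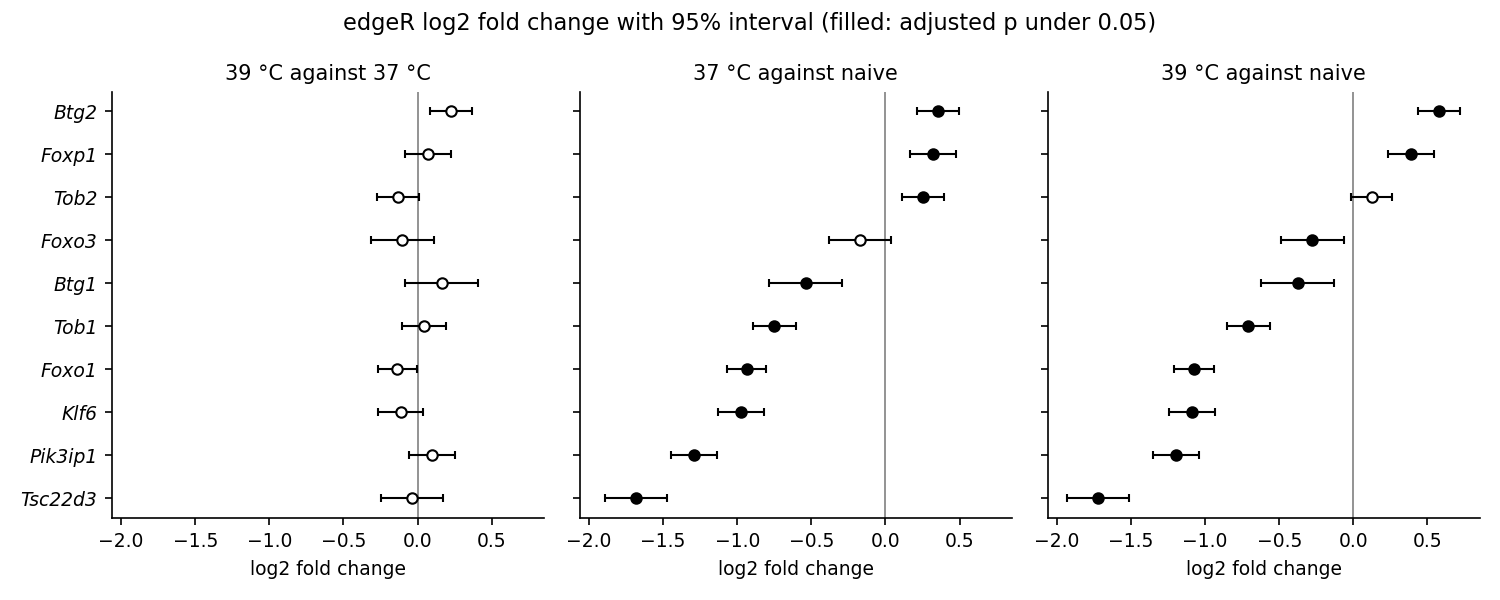
Log2 fold change of the 10 genes at 39 °C against 37 °C, at 37 °C against naive and at 39 °C against naive, with 95% intervals of the edgeR fit; filled points have an adjusted p under 0.05. The temperature panel has no filled point, and in both activation panels Tsc22d3 and Pik3ip1 lie farthest to the left and Btg2 and Foxp1 to the right; the activation panels share the naive libraries.

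The genes whose pattern over the 9 libraries was nearest to each of the 10 were found among 8990 genes, by the root mean square difference of log2 CPM centred on the mean of each gene, given in parentheses. Foxo1 was nearest to Klf6 (0.045) and Galnt12 (0.048), and Klf6 to Ifi203 (0.044) and Foxo1. Btg1 was nearest to Actr10 (0.023) and Cpt2 (0.032), Tob2 to Srrm1 (0.025) and Pnn (0.028), and Tob1 to Sesn1 (0.031) and Smad7 (0.041). For Foxp1 they were Aste1 (0.040) and Eif4e2 (0.041), for Btg2 Dars (0.048) and Capg (0.051), for Foxo3 Zfp217 (0.051) and Hdac5 (0.051) and for Pik3ip1 Wbp1 (0.050) and Selplg (0.054). Tsc22d3 had the least similar neighbours, Klhdc2 (0.092) and Pip4p2 (0.093). Of all pairs among the 10 genes, Foxo1 and Klf6 were the closest, and the bases before their start sites are shown for that reason, in the same form and with the same motifs in capitals. The Foxo1 stretch is chr3:52268087-52268336 and the Klf6 stretch chr13:5861239-5861488, both on the plus strand.
Foxo1: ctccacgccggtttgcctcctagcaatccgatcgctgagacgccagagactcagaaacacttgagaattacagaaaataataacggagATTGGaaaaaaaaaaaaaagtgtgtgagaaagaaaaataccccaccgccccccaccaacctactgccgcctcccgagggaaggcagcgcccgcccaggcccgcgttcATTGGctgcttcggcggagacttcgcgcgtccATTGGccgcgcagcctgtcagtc
Klf6: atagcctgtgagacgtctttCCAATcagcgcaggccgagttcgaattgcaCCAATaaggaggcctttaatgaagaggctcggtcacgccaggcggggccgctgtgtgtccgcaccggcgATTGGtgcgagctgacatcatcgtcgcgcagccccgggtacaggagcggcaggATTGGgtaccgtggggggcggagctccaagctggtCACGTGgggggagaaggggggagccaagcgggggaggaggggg
Foxo1 held CCAAT 3 times, 162, 55 and 23 bases before the start, all on the opposite strand. Klf6 held it 4 times, 230 and 200 bases before the start on the strand of the gene and 131 and 78 bases before on the opposite strand, and an E-box, found in 7.15% of all windows, 43 bases before. TATAAA, found in 13.6% of all windows, was in neither stretch, and among the 10 genes it was in the windows of Tob1, 47 bases before the start, and Btg1.

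The pathways around these genes were described with lists of named genes. Values in parentheses after a gene are log2 fold changes against naive, at 39 °C and then at 37 °C. FoxO target genes mostly fell: of 21 tested, 3 higher and 16 lower at 39 °C against naive and 3 higher and 15 lower at 37 °C against naive, with median log2 fold changes of -0.72 and -0.68. Of all genes tested, 29.2% were higher and 29.8% lower at 39 °C and 30.9% higher and 31.8% lower at 37 °C, with medians near 0, and the lists below are read against the same shares. Txnip, an inhibitor of glucose uptake, had 339 ± 4.73 CPM at 39 °C, 338 ± 12.4 CPM at 37 °C and 944 ± 109.6 CPM in naive cells. Its log2 fold change was -1.48 ± 0.086 at 39 °C (adjusted p = 3.37e-08) and -1.48 ± 0.086 at 37 °C (adjusted p = 2.99e-08). The transcriptional cofactor gene Cited2 fell, with log2 fold changes of -1.39 ± 0.087 at 39 °C and -1.40 ± 0.087 at 37 °C. S1pr1, the receptor that lets T cells leave lymphoid organs, fell too, with 440.3 ± 6.21 CPM at 39 °C, 474 ± 5.52 CPM at 37 °C and 949 ± 71.2 CPM in naive cells (adjusted p = 9.44e-08 at 39 °C and adjusted p = 2e-07 at 37 °C). Bcl6, a transcriptional repressor that drives the follicular helper programme, went the other way, with 141 ± 4.03 CPM at 39 °C, 138 ± 4.57 CPM at 37 °C and 30.0 ± 3.41 CPM in naive cells and log2 fold changes of 2.23 ± 0.084 at 39 °C and 2.20 ± 0.084 at 37 °C.

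Genes of PI3K subunits and lipid phosphatases also mostly fell, 3 higher and 10 lower of 15 tested at 39 °C and 3 higher and 10 lower at 37 °C, with medians of -0.81 and -0.70. The regulatory subunit genes Pik3r5 (-1.27 ± 0.10 at 39 °C and -1.14 ± 0.10 at 37 °C) and Pik3r2 (-1.19 ± 0.11 and -1.12 ± 0.11) and the catalytic subunit gene Pik3cg (-0.83 ± 0.083 and -0.78 ± 0.083) fell on the log2 scale. So did Pik3cd, the main catalytic subunit of T cells (-0.87 ± 0.11 and -0.90 ± 0.11), and Pik3r1 (-0.81 ± 0.083 and -0.70 ± 0.083). Pik3ip1, the inhibitor described above, thus fell beside these PI3K subunit genes, while 3 genes of the list were called higher in each comparison. Kinases and partners of FoxO factors were split, 7 higher and 4 lower of 18 at 39 °C and 8 higher and 5 lower at 37 °C, shares called of 61.1% and 72.2% beside 58.9% and 62.7% of all genes tested. The 14-3-3 genes Ywhag (1.19 ± 0.061 and 1.38 ± 0.061) and Ywhae (0.69 ± 0.10 and 0.64 ± 0.10), whose products hold phosphorylated FoxO in the cytoplasm, rose on the log2 scale at 39 °C and 37 °C. The kinase genes Sgk1 (-1.47 ± 0.083 and -1.67 ± 0.084) and Sgk3 (-1.14 ± 0.10 and -1.01 ± 0.10) fell. With upper-quartile scaling the list had 5 higher and 5 lower at 39 °C and 6 higher and 7 lower at 37 °C.

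The CCR4-NOT and PAN deadenylase genes, partners of Tob and Btg proteins, were called in 8 of 16 cases in each comparison. Of all genes tested, 58.9% were called at 39 °C and 62.7% at 37 °C, and the difference from these shares was not tested. The calls were 5 higher and 3 lower at 39 °C and 7 higher and 1 lower at 37 °C. With upper-quartile scaling they were 3 higher and 5 lower at 39 °C and 4 and 4 at 37 °C. Pabpc4, a poly(A)-binding protein gene, rose by a log2 fold change of 0.82 ± 0.057 at 39 °C and 0.86 ± 0.057 at 37 °C, and Tnks1bp1, a CCR4-NOT-associated protein gene, by 1.41 ± 0.12 and 1.46 ± 0.12. The CCR4-NOT subunit gene Cnot2 rose (0.33 ± 0.067 and 0.30 ± 0.067) and Pan3 fell (-0.34 ± 0.076 and -0.33 ± 0.076). Among the other BTG and TSC22 genes, of which 4 were tested, Btg3 (0.82 ± 0.13 at 39 °C and 1.35 ± 0.12 at 37 °C) and Tsc22d2 (0.58 ± 0.072 and 0.70 ± 0.072) rose and Tsc22d4 (-0.50 ± 0.063 and -0.60 ± 0.063) fell.

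Relatives of Foxo1, Foxp1 and Klf6 moved in both directions. Of 12 other forkhead genes, 6 higher and 4 lower were called at 39 °C and 6 higher and 3 lower at 37 °C. Foxp4 had 409.5 ± 12.7 CPM at 39 °C, 413 ± 10.9 CPM at 37 °C and 111 ± 14.3 CPM in naive cells, log2 fold changes of 1.89 ± 0.091 and 1.90 ± 0.091 against naive. Foxp3, the factor of regulatory T cells, rose by a log2 fold change of 1.01 ± 0.076 and 0.93 ± 0.076. Foxk2 (0.79 ± 0.067 and 0.85 ± 0.067) and Foxn2 (0.66 ± 0.074 and 0.87 ± 0.074) rose as well. Of 10 other KLF genes, 3 higher and 6 lower were called at 39 °C and 3 higher and 6 lower at 37 °C. Klf4, an inhibitor of T cell proliferation, had 1.62 ± 0.164 CPM at 39 °C, 1.62 ± 0.271 CPM at 37 °C and 10.5 ± 0.740 CPM in naive cells, a log2 fold change against naive of -2.69 ± 0.16 at 39 °C and -2.69 ± 0.16 at 37 °C. Klf13 fell (-0.82 ± 0.069 at 39 °C and -0.89 ± 0.070 at 37 °C), as did Klf3 (-0.73 ± 0.073 and -0.58 ± 0.072), and Klf16 (1.05 ± 0.071 and 1.11 ± 0.071) and Klf10 (0.69 ± 0.10 and 0.99 ± 0.10) rose.

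The fall of Tsc22d3 stood beside a mixed picture of glucocorticoid response genes, of which 13 were tested, with 5 higher and 5 lower at 39 °C and 7 higher and 5 lower at 37 °C. Sgk1, named above, and the phosphatase gene Dusp1 (-1.51 ± 0.089 at 39 °C and -1.29 ± 0.089 at 37 °C) fell, as did the interleukin 7 receptor gene Il7r (-0.78 ± 0.070 and -0.82 ± 0.070). Errfi1, an inhibitor of the EGF receptor, rose (1.20 ± 0.084 and 1.45 ± 0.083). Of 20 other T cell quiescence genes, 5 higher and 10 lower were called at 39 °C and 6 higher and 10 lower at 37 °C. Vsir, which encodes the checkpoint receptor VISTA, rose (1.29 ± 0.072 and 1.27 ± 0.072), whereas of 2 related genes of mRNA decay factors Zfp36l2 fell (-1.33 ± 0.068 and -1.17 ± 0.067) and Zfp36l1 rose (1.10 ± 0.10 and 1.26 ± 0.10). The ubiquitin ligase gene Cblb rose (0.86 ± 0.080 and 1.03 ± 0.080) and the repressor gene Mxd4 fell (-1.14 ± 0.088 and -0.98 ± 0.088).

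Between 39 °C and 37 °C, 0 genes of these lists were called by edgeR. An unadjusted p under 0.05 was found for 7.96% of all genes tested. In the lists the number was 1 of 21 FoxO targets, 4 of 18 FoxO kinases and partners, 1 of 15 PI3K genes and 0 of 16 deadenylase genes. It was 1 of 4 BTG and TSC22 genes, 1 of 12 forkhead genes, 2 of 10 KLF genes, 5 of 13 glucocorticoid response genes and 2 of 20 quiescence genes, and some genes are in 2 lists. DESeq2 called 1 of them, Btg3, lower at 39 °C, as did edgeR with any count admitted and without naive library 2. In the fit of the 6 activated libraries, Btg3, Nr3c1, the glucocorticoid receptor gene, Ywhag and Ccr7 were called lower at 39 °C, and without naive library 1 Btg3 and Nr3c1 were.

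**Figure D4:**
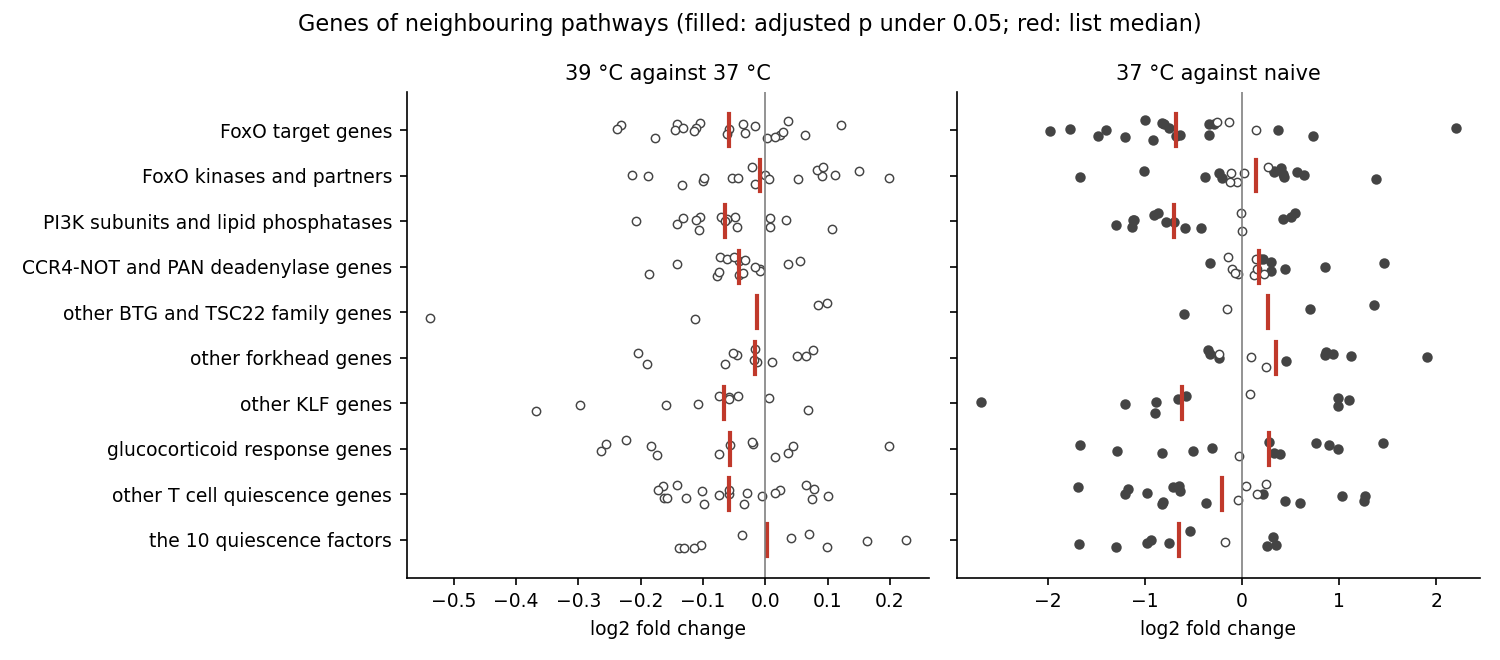
Log2 fold change of each gene in the 10 quiescence factors and the 9 lists around them, at 39 °C against 37 °C and at 37 °C against naive; filled points have an adjusted p under 0.05 and red marks are list medians. The horizontal scale of the temperature panel is narrower than that of the activation panel, and its points are all open, while FoxO targets and PI3K genes lie mostly left of 0 in the activation panel.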

How the data were processed

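Each of the 9 libraries has a table of raw counts per gene as the authors deposited it, not normalized, and every line of it is a gene. Per the labels' protocols, TRIzol was used for RNA isolation and a TruSeq v2 kit for the libraries. GRCm38 is the build and FastQC, HISAT2, HTSeq and DESeq2 are the tools listed in the submitters' processing notes. Their versions and roles, the annotation release and the strandedness of the counting are not given in the sources used here. Whether reads that map to several places were counted is not given either, which can lower genes with close copies. GENCODE M21 gave symbols, GRCm38 coordinates and exon lengths for 55480 of 55573 identifiers, and RefSeq (GRCm38.p6) gave the promoter windows of all 10 genes.

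Low genes were removed with filterByExpr (minimum count 10, minimum total 15). Counts were scaled by TMM and fitted with edgeR 4.0.16 in R 4.3.3, by 2-sided quasi-likelihood F tests in 1 fit of all 9 libraries with group as the sole term. P-values were adjusted by Benjamini-Hochberg over all 13328 genes, with a threshold of 0.05. Standard errors are the log2 fold change over the square root of F. Groups were taken from the labels. With 12647692 to 17605549 counts per library and 3 libraries a group, simulated counts of 13081 genes with known changes between 39 °C and 37 °C were tested: 50 of 50 genes were recovered at 4-fold and at 2-fold, 42 at 1.5-fold and 10 at 1.25-fold, with 4 unchanged genes called. Changed genes were drawn only from those above a set mean CPM, with the spread of each gene taken from the fit.

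The 10 genes and the lists around them were chosen with earlier results of these data known, and no list was tested as a set. All 10 genes are described. From each list up to 4 called genes per activation comparison are named, those with the smallest adjusted p. List genes with too few counts to be tested are Rag1, Pik3r6, Btg4, Foxo6, Foxp2, Klf1, Klf5, Klf12, Klf15, Klf17, Zbtb16, Anxa1, Mt1 and Mt2. Patterns were compared among genes averaging 5 CPM or more. Alternatives were RLE, library size and upper-quartile scaling, no count filter beyond 1 count, DESeq2 1.42.0, the 6 libraries of a comparison, a replicate block and leaving out each library. No formal test for a sample far from its group was made, since it needs groups of 4 or more.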

Additional observations from a re-analysis of the deposited data

How the results depend on the processing

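Over 16 alternatives, 468 of 480 log2 fold changes of the 10 genes kept their direction and side of the threshold, 6 lost a call, 5 gained one and 1 turned round. The 1 that turned was Tob2 at 39 °C against naive, -0.0043 with upper-quartile scaling, not called in either case. Upper-quartile scaling also called Foxo3 lower at 37 °C against naive, at -0.31 (adjusted p = 0.0154), and moved the split of all calls at 39 °C against naive to 3092 higher and 4914 lower, beside 3887 and 3968, and at 37 °C against naive to 3340 and 5139, beside 4114 and 4240. In the fit of 6 libraries Foxo3 at 39 °C against naive was not called, at -0.26 (adjusted p = 0.0804). Between 39 °C and 37 °C, 101 of all genes were called in the fit of 9 libraries, 176 with any count admitted, 401 with the 6 activated libraries, and 37 to 291 leaving out 1 library at a time. The lowest count, 37, was without 39 °C library 2, and the highest, 291, without naive library 1. Leaving out any of the other activated libraries gave 43 to 51 calls, naive library 2 gave 152 and naive library 3 gave 79. The 10 genes called numbered 1 by DESeq2, 1 with the 6 libraries and 0 to 1 leaving out 1 library, each time Btg2. The cause of these changes was not tested. At 37 °C against naive 10 of the 10 genes were called without naive library 1. Correlations of the deviations from the group means were -0.17 to 0.33 between same-numbered libraries of different groups and -0.34 to 0.36 between others, and since not every same-numbered pair was over 0.1 the numbers were not taken as pairs. With the replicate block 97 genes were called between 39 °C and 37 °C, 8519 at 37 °C against naive and 8065 at 39 °C against naive, and 0, 9 and 9 of the 10 genes. In the simulated counts for 39 °C against 37 °C, with 3 libraries per group, 10 of 50 changes of 1.25-fold were recovered.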

Other observations

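Btg3, a further relative of Btg1 and Btg2, had 12.2, 13.1 and 12.5 CPM at 39 °C, 19.6, 16.2 and 19.1 CPM at 37 °C and 8.39, 6.45 and 6.65 CPM in naive cells. It is given here because its temperature difference was seen in the data. The 39 °C libraries lay between the naive and the 37 °C libraries without overlap. The log2 fold change at 39 °C against 37 °C was -0.54 ± 0.12 with an edgeR adjusted p = 0.0774, and it was called in 5 of 16 alternatives, over which the log2 fold change ran from -0.62 to -0.48 and the adjusted p from 0.00711 to 0.432. For Btg2 the log2 fold change at 39 °C against 37 °C had the other sign, 0.23 ± 0.065 (adjusted p = 0.241). The difference between the responses of the 2 genes was not tested.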
